A study of Homo sapiens with 6 samples.

Results

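Antisense and sense-intronic transcripts are RNAs that come from the same stretch of genome as another gene. They were followed in HCCLM3, a human hepatocellular carcinoma cell line, labelled WT, treated for 24 h with ginkgolic acid at 10 µM or with the solvent DMSO alone. Ginkgolic acid is an alkylated salicylic acid from Ginkgo biloba. Each group had 3 RNA-seq libraries, numbered here as in the sample titles. The transcripts were all those that the authors' deposited table of 403 genes classes as antisense (34) or sense-intronic (11), 45 in all. Of 9 hepatocyte and hepatocellular carcinoma markers, the table holds 1 (ALB, lower with ginkgolic acid), so the labelled cell type could not be checked against most of its markers. Of 16 fibroblast, leukocyte and endothelial markers it holds 0.

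An antisense RNA is transcribed from the DNA strand opposite a gene, so that where exons face each other its sequence is complementary to that gene's RNA. Some are known to regulate the gene they overlap, and others arise where a promoter fires in both directions. A sense-intronic RNA lies inside an intron of a gene and on the same strand, so that its reads can come from a transcript of its own or from unspliced precursor RNA of the host gene. A read from an overlapping stretch can be assigned to either gene only if the library keeps the strand, and the strand setting of the counting was not given in the sources used here. Reads of an antisense transcript and of the gene opposite therefore cannot be told apart here. This holds for exons of that gene and for unspliced precursor RNA of its introns. The number of shared exonic bases is given with each antisense transcript described by its values. An antisense transcript inside an intron of that gene, with no shared exonic base, is under the same limit.

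The 3 stretches below are shown because they are where 3 of the antisense transcripts described below face coding sequence of another gene. They come from GENCODE 29 transcripts (GRCh38), are written 5′ to 3′ on the strand of the antisense RNA, and have the bases that lie over coding sequence of the opposite gene in capitals. They were chosen after the values were seen. The first is an exonic stretch of AC084036.1 (chr3:156523807-156523967, minus strand) that covers a 121-base stretch of KCNAB1 coding sequence. The bases of the KCNAB1 strand just outside it are ag before and gt after, the usual intron ends, so the capitals span a whole coding exon. The second is the first 160 bases of a 354-base stretch of AL590666.2 (chr1:156646995-156647154, minus strand) that lies over BCAN. The last is 160 bases of a 201-base stretch of PRRT3-AS1 (chr3:9947404-9947563, plus strand) over PRRT3.
AC084036.1: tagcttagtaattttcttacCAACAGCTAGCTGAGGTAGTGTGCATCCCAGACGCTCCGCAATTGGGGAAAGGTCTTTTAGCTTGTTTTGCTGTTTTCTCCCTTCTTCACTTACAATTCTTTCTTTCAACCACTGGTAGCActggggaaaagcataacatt
AL590666.2: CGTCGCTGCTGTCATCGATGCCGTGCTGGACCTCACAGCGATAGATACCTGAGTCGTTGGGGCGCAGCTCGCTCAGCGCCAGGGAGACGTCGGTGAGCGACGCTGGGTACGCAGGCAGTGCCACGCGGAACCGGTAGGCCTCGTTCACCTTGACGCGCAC
PRRT3-AS1: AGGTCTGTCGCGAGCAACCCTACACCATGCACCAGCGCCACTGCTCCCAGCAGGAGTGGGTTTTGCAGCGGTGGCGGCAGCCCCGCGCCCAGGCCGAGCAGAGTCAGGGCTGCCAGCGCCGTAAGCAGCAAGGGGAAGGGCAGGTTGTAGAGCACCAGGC

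Of the 45 transcripts, 32 rose and 13 fell with ginkgolic acid. Among antisense transcripts 22 rose and 12 fell, and among sense-intronic transcripts 10 rose and 1 fell. Every gene of the table had been selected by the authors for its difference between these same libraries (in the authors' deposited table each has an adjusted p under 0.05 and more than a 1-unit log2 change), so 100% of its genes were called in the limma fit used here, and the counts of calls are a description and no independent evidence. At an adjusted p under 0.01, 99% of all genes were called, and 31 of the transcripts were higher and 13 lower. The higher share was 71.1% of the 45 transcripts, 64.7% of the antisense and 90.9% of the sense-intronic ones, beside 62.8% of all 403 genes. The lower share was 37.2% of all genes. The groups did not overlap in 98.3% of all 403 genes, so the separation of groups given below is likewise a description. The median rise was 1.34 and the median fall -1.28 on the log2 scale, beside 1.30 and -1.26 over all genes. Thus the medians of the 45 transcripts lay close to those of all 403 genes, every one of which had passed the authors' cut on size. By class, the median rise was 1.30 for antisense and 1.52 for sense-intronic transcripts. Values are normalised read counts, and all folds are of log2(normalised read count + 1), which understates the change of low genes.

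**Figure D1:**
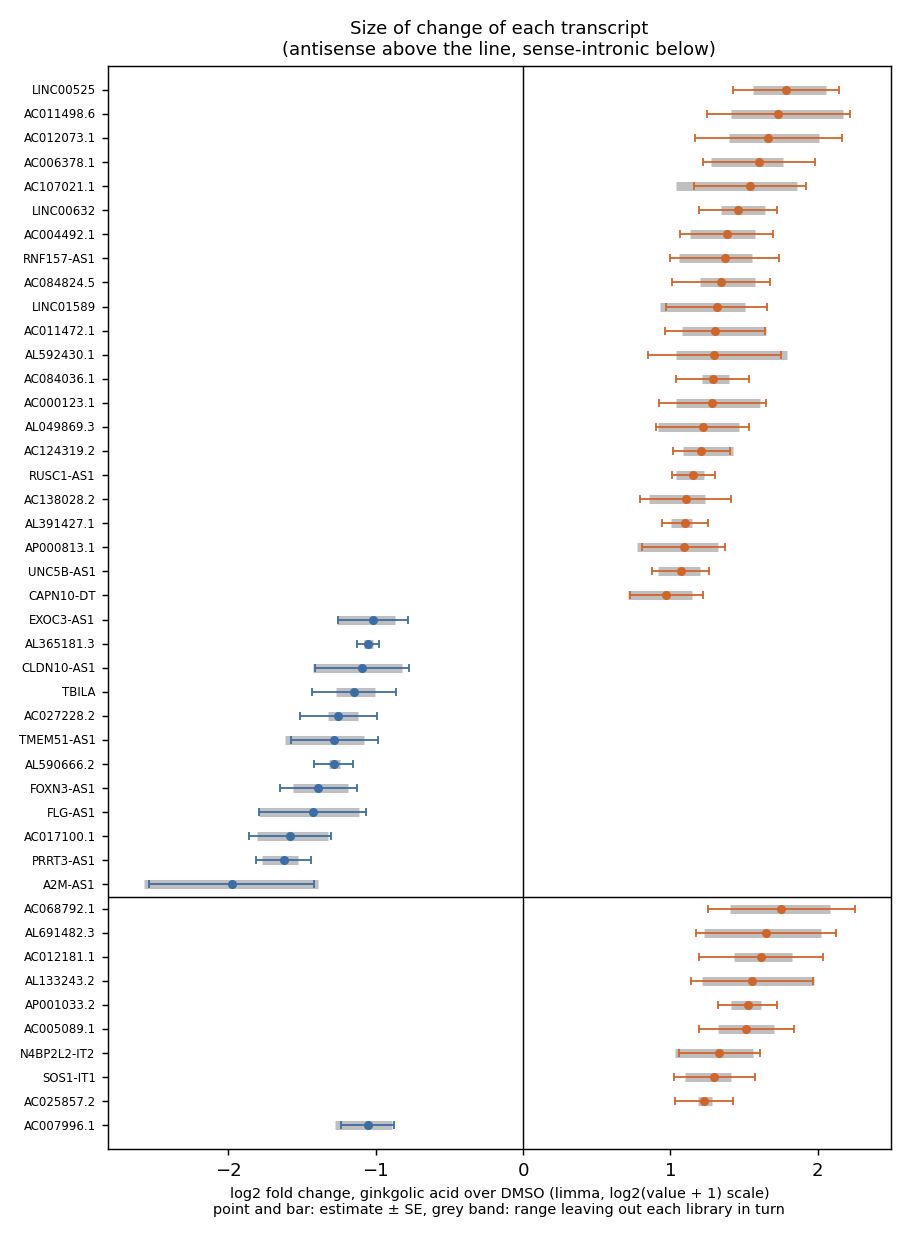
Log2 fold change of 44 of the 45 transcripts, ginkgolic acid over DMSO (horizontal axis, limma on log2 values), with standard errors as bars, 3 libraries per group and a grey band for the range when each library is left out in turn. The sense-intronic rises drawn lie between 1.23 and 1.75, and the 1 sense-intronic fall is AC007996.1 at -1.06.

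The split depends on the scaling of the libraries. Under a median-of-ratios rescaling over the 403 selected genes, which shifts the log2 fold changes by a median of -0.875, 2 of the 45 transcripts were called higher and 13 lower, and over all genes 61 and 150. The 2 were the antisense LINC00525 and the sense-intronic AP001033.2. No transcript changed direction. The authors' scaling is kept below. The total depth of the libraries is unknown. If the smallest step of the values in each library is taken as 1 read, the 6 libraries hold 67006 to 98627 reads over the table and 2489 to 3412 over the 45 transcripts. No label ties the 3 libraries of a group to separate cultures. The p-values thus cover the spread among libraries alone, and that spread may be technical. Fewer cells of a kind and less RNA per cell cannot be told apart in bulk RNA.

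**Figure D2:**
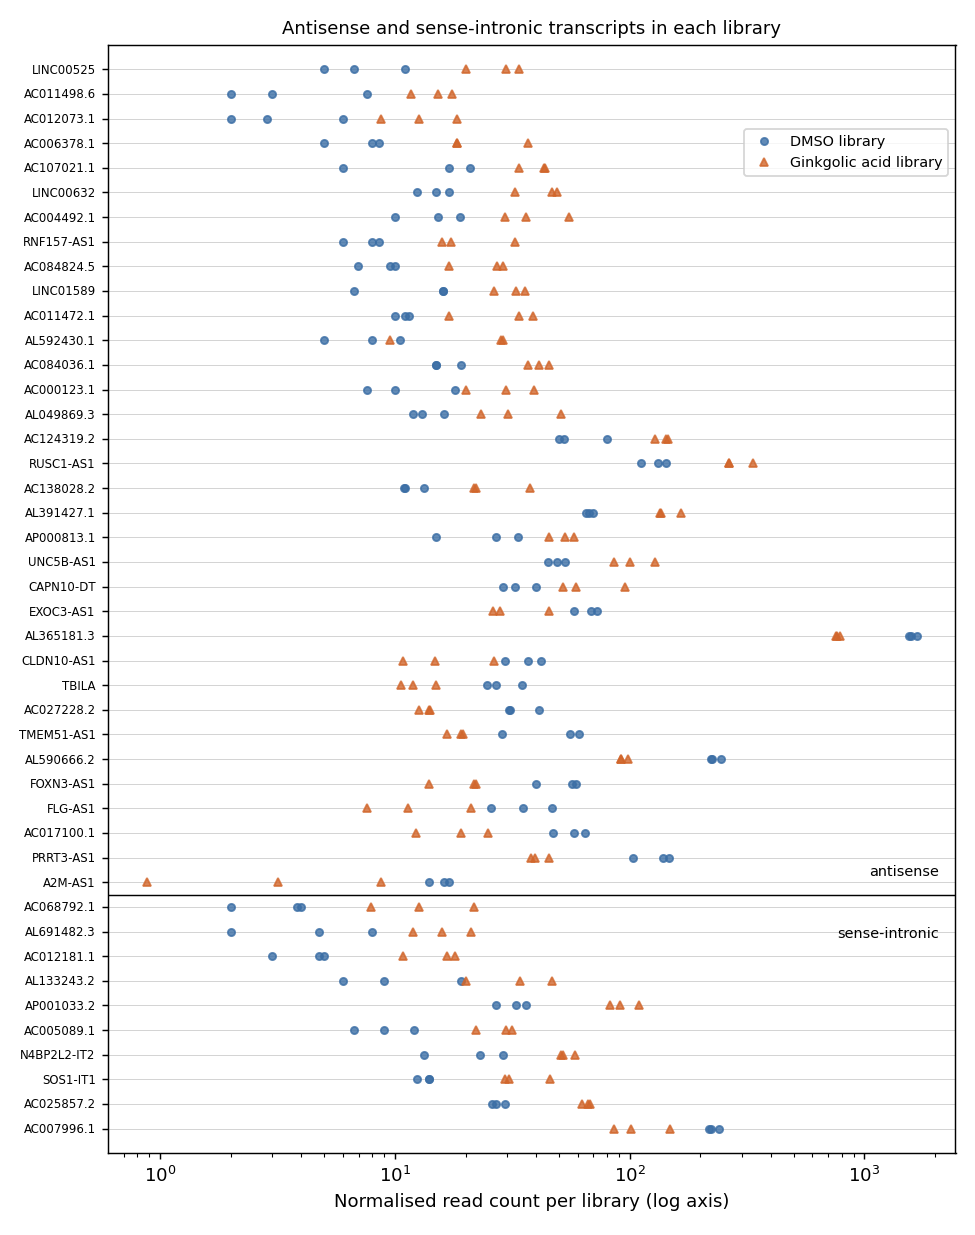
Normalised read count of 44 of the 45 transcripts in every library (log axis), with DMSO and ginkgolic acid libraries as separate symbols. The groups overlap only in AL592430.1, and they do not overlap in 98.3% of all 403 genes.

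Of the 5 transcripts that overlap a coding gene of the table, 2 lie at BCAN, which encodes brevican, a chondroitin sulfate proteoglycan of the extracellular matrix known mainly from the brain. Both antisense transcripts and the coding gene fell there together. AL365181.3 (chr1:156641666-156644887, minus strand), with the highest mean count of the 45, is a single exon of 3222 bases that covers 4 annotated start sites of BCAN. It had 1548, 1584 and 1677 normalised reads in the DMSO libraries and 765, 757 and 791 in the ginkgolic acid libraries. The libraries of each group lay close together and the groups were far apart, with a fall from 1603 ± 66.4 to 771 ± 17.6 (SD, n = 3), log2 fold change -1.05 ± 0.07 (SE), adjusted p = 6.49e-08 by limma. Per kilobase of exon, AL365181.3 stood at 498 normalised reads in DMSO and 239 with ginkgolic acid, while BCAN stood at 57.96 and 26.6. Per length, AL365181.3 thus stood above BCAN in both groups. It shares 328 exonic bases with BCAN and 0 bases of coding sequence, and all of its 3222 bases lie within BCAN.

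The other, AL590666.2 (chr1:156646507-156661424, minus strand), has 2 exons with 758 bases in all, of which 354 face BCAN coding sequence. It had 223, 225 and 246 normalised reads in the DMSO libraries and 92.2, 92.3 and 98.3 in the ginkgolic acid libraries. The groups did not overlap, and the mean went from 231 ± 12.4 to 94.3 ± 3.48 (SD, n = 3), log2 fold change -1.28 ± 0.13 (SE), adjusted p = 2.02e-06 by limma. BCAN itself (chr1:156641390-156659532, plus strand) had 298, 273 and 286 normalised reads in the DMSO libraries and 119.8, 125 and 149 in the ginkgolic acid libraries, from 286 ± 12.8 to 131 ± 15.7 (SD, n = 3), log2 fold change -1.12 ± 0.13 (SE), adjusted p = 6.56e-06 by limma. All of its ginkgolic acid libraries lay below all of its DMSO libraries. The log2 ratio of antisense to BCAN changed by 0.07 (pooled SD 0.119, exact permutation p = 0.5) for AL365181.3 and by -0.16 (pooled SD 0.109, exact permutation p = 0.2) for AL590666.2, and in both the ratios of single libraries overlapped between the groups. With 3 against 3 libraries this two-sided exact permutation test cannot go below p = 0.1. HAPLN2, which encodes a hyaluronan and proteoglycan link protein, lies on the same strand as BCAN and ends 15941 bases from AL365181.3. It rose, from 6.56 ± 0.501 to 21.3 ± 0.984 (SD, n = 3), log2 fold change 1.56 ± 0.33 (SE), adjusted p = 0.000663 by limma, a change in the opposite direction.

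FLG-AS1 (chr1:152168125-152445456, plus strand) runs opposite a cluster of epidermal genes and fell together with 2 of them. FLG encodes filaggrin and HRNR hornerin, both large repeat proteins of the cornified layer of skin. FLG-AS1 had 35.03, 25.7 and 46.9 normalised reads in the DMSO libraries and 21.2, 7.602 and 11.4 in the ginkgolic acid libraries, from 35.9 ± 10.6 to 13.4 ± 7.01 (SD, n = 3), log2 fold change -1.43 ± 0.36 (SE), adjusted p = 0.00219 by limma. Its ginkgolic acid libraries were scattered but stayed below all DMSO libraries. FLG had 108, 94.4 and 113 normalised reads in the DMSO libraries and 43.5, 44.5 and 38.6 in the ginkgolic acid libraries, log2 fold change -1.29 ± 0.17 (SE), adjusted p = 2.2e-05 by limma. HRNR had 45.04, 44.8 and 67.9 normalised reads in the DMSO libraries and 22.3, 19.5 and 18.4 in the ginkgolic acid libraries, log2 fold change -1.32 ± 0.24 (SE), adjusted p = 0.000272 by limma. Neither gene overlapped between the groups. FLG-AS1 shares 704 exonic bases with FLG, all of them coding sequence, and 0 with HRNR. The log2 ratio of FLG-AS1 changed by -0.13 (pooled SD 0.538, exact permutation p = 0.9) against FLG and by -0.11 (pooled SD 0.447, exact permutation p = 0.8) against HRNR, with overlapping groups. FLG2 and CRNN, which FLG-AS1 also overlaps, are outside the 403 genes and were not analysed here.

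KCNAB1 and its antisense transcript rose together. KCNAB1 encodes a β subunit of voltage-gated potassium channels. AC084036.1 (chr3:156523740-156524247, minus strand) is a single exon of 508 bases inside KCNAB1, and holds the stretch over a coding exon shown above. It had 15.01, 19.1 and 14.97 normalised reads in the DMSO libraries and 45.6, 41.3 and 36.9 in the ginkgolic acid libraries, from 16.4 ± 2.35 to 41.2 ± 4.36 (SD, n = 3), log2 fold change 1.29 ± 0.24 (SE), adjusted p = 0.000338 by limma. The lowest ginkgolic acid library was well above the highest DMSO library. KCNAB1 had 62.1, 45.8 and 74.9 normalised reads in the DMSO libraries and 99.6, 119 and 154 in the ginkgolic acid libraries, log2 fold change 1.02 ± 0.22 (SE), adjusted p = 0.000673 by limma, again with no overlap. The log2 ratio changed by 0.26 (pooled SD 0.498, exact permutation p = 0.6). The spread between libraries covers this difference.

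SOS1-IT1 (chr2:38992279-38993857, minus strand) is the one sense-intronic transcript whose host is in the table. SOS1 encodes a guanine nucleotide exchange factor that activates RAS. SOS1-IT1 had 14.01, 12.4 and 13.98 normalised reads in the DMSO libraries and 30.7, 29.3 and 45.6 in the ginkgolic acid libraries, from 13.5 ± 0.925 to 35.2 ± 9.04 (SD, n = 3), log2 fold change 1.30 ± 0.27 (SE), adjusted p = 0.000691 by limma. SOS1 had 1841, 1769 and 1801 normalised reads in the DMSO libraries and 3720.1, 3875 and 3733 in the ginkgolic acid libraries, log2 fold change 1.07 ± 0.06 (SE), adjusted p = 1.08e-08 by limma. Both rose with no overlap between the groups. No exonic base is shared, and the log2 ratio of SOS1-IT1 to SOS1 changed by 0.23 (pooled SD 0.259, exact permutation p = 0.4). SOS1-IT1 lies wholly within SOS1 on the same strand, so its reads cannot be told apart from those of SOS1 precursor RNA.

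**Figure D3:**
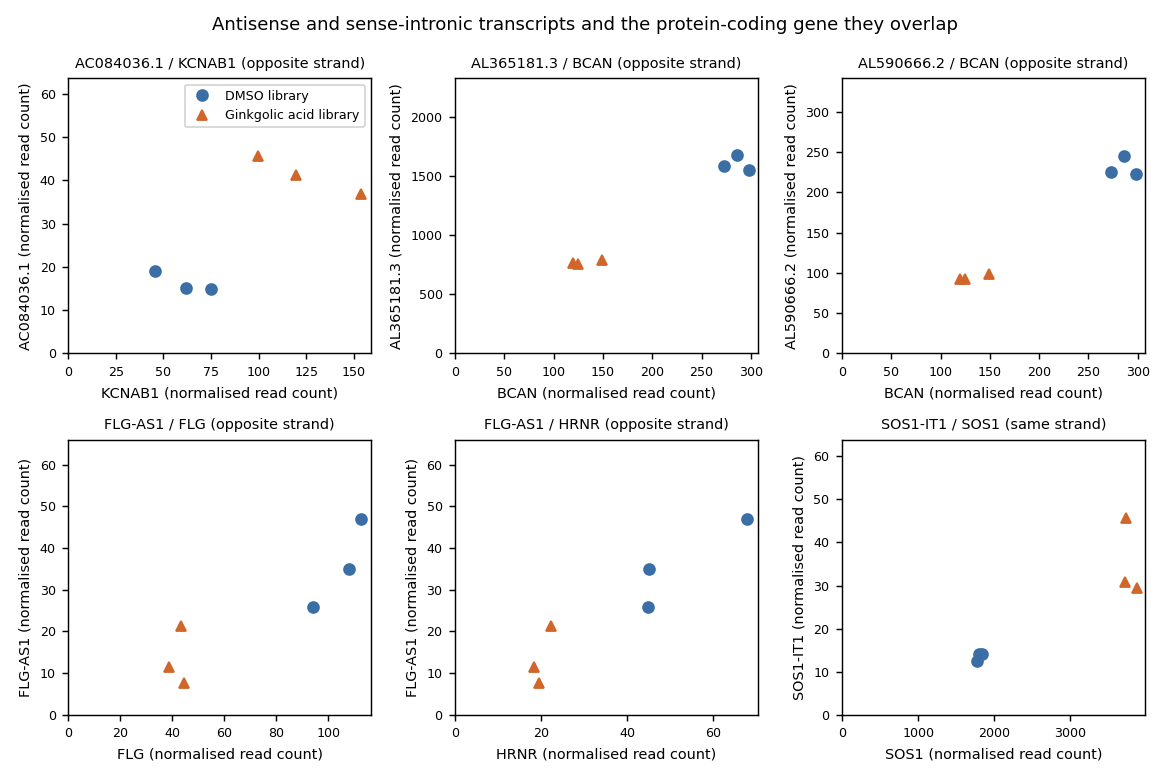
Each antisense or sense-intronic transcript (vertical axis) against the coding gene it overlaps (horizontal axis), in normalised read counts, 1 point per library, both axes starting at 0. In every panel the 3 ginkgolic acid libraries are separate from the 3 DMSO libraries along both axes and in the same direction. Separation of a single gene, in either direction, is found in 98.3% of all 403 genes.

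Across these loci, 5 of the 45 transcripts (11.1%) overlapped a coding gene of the table by at least 1 base, giving 6 pairs. In 6 of 6 pairs both partners moved in the same direction. BCAN and FLG-AS1 each stand in more than 1 pair, so the pairs are not separate observations. Of the other 358 genes, 5 (1.4%) overlapped a coding gene of the table, and 4 of 5 such pairs moved the same way. Antisense and sense-intronic genes are classed by their position at another gene, so the first shares are no like comparison, and both partners of every pair had been selected for a change. After adjustment over the 6 pairs, every ratio had p = 0.9 in the exact permutation test.

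**Figure D4:**
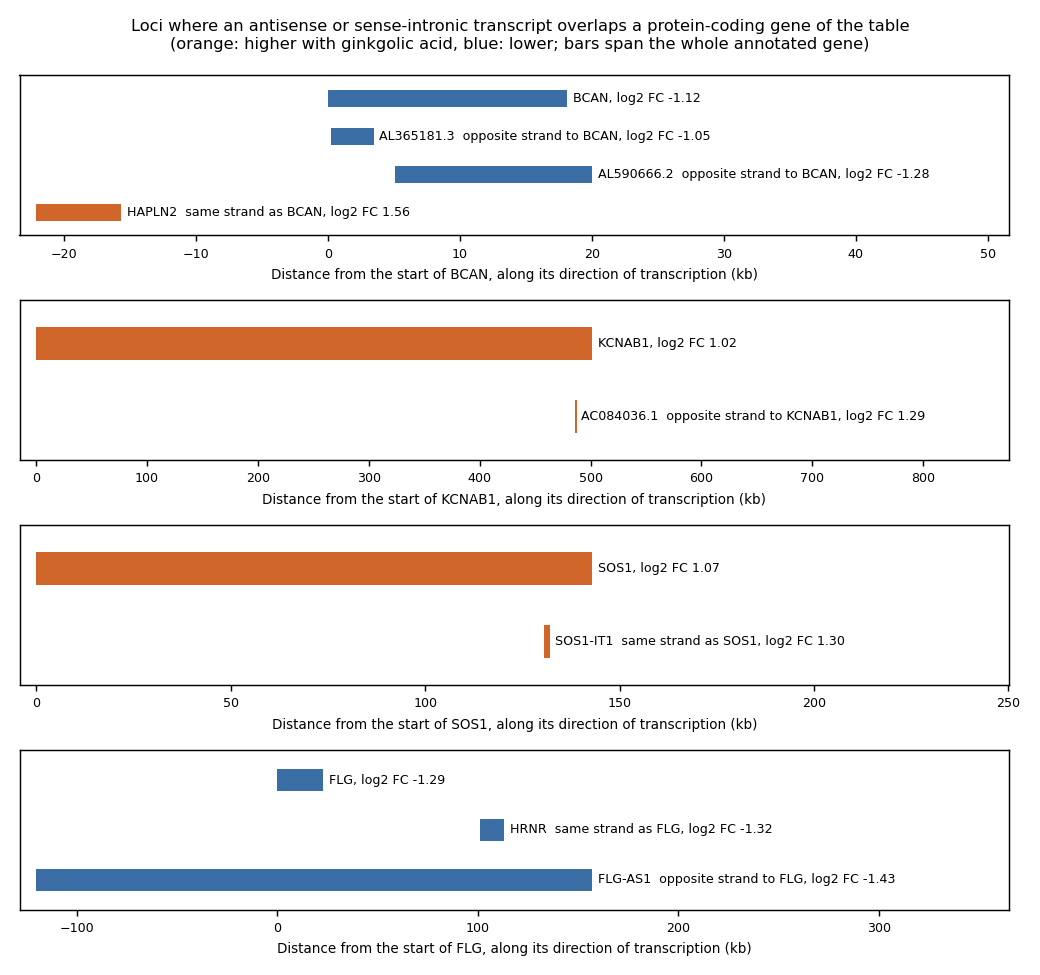
Position of the 5 transcripts and of the coding genes and neighbour in the table, as distance in kb from the start of the coding gene along its direction of transcription, coloured by direction. HAPLN2 rises beside the 3 falling BCAN-locus genes, and at the other 3 loci all genes drawn move the same way.

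Other antisense falls faced coding genes outside the table. The largest was that of A2M-AS1, opposite A2M, the gene of the plasma protease inhibitor α2-macroglobulin, with 561 shared exonic bases. A2M-AS1 had 14.01, 16.2 and 16.97 normalised reads in the DMSO libraries and 3.18, 8.69 and 0.878 in the ginkgolic acid libraries (log2 fold change -1.98 ± 0.56 (SE), adjusted p = 0.0041 by limma). Its ginkgolic acid libraries differ from each other by more than its DMSO libraries do, and the log2 fold change was -2.57 without ginkgolic acid library 2 and -1.39 without library 3. Its 0.878 in ginkgolic acid library 3 equals the smallest step of that library. The rank depends on the pseudocount added before the log2. At 0.5 the log2 fold change of A2M-AS1 was -2.17. At 5 it was -1.25, a smaller fall than those of PRRT3-AS1 (-1.54) and AC017100.1 (-1.40). PRRT3-AS1 lies opposite PRRT3, which encodes a proline-rich transmembrane protein, and shares the 201 coding bases of which 160 are shown above. PRRT3-AS1 had 138, 147 and 104 normalised reads in the DMSO libraries and 45.6, 38.01 and 39.5 in the ginkgolic acid libraries (log2 fold change -1.62 ± 0.19 (SE), adjusted p = 5.75e-06 by limma). It is far steadier than A2M-AS1, with every ginkgolic acid library under the lowest DMSO library. AC017100.1 begins 181 bases from a start of B4GALT6, a galactosyltransferase of lactosylceramide synthesis, and shares 107 exonic bases with it. AC017100.1 had 47.04, 64.8 and 57.9 normalised reads in the DMSO libraries and 19.1, 24.98 and 12.3 in the ginkgolic acid libraries (log2 fold change -1.58 ± 0.28 (SE), adjusted p = 0.000186 by limma). FOXN3-AS1 begins 242 bases from a start of FOXN3, a forkhead transcription factor, and shares 0 exonic bases with it. FOXN3-AS1 had 40.04, 59.1 and 56.9 normalised reads in the DMSO libraries and 22.3, 21.7 and 14.04 in the ginkgolic acid libraries (log2 fold change -1.39 ± 0.26 (SE), adjusted p = 0.000327 by limma). Neither AC017100.1 nor FOXN3-AS1 overlapped between the groups.

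The 6 largest antisense rises all averaged under 50 normalised reads. LINC00525 lies opposite PKD1L1, a polycystin family gene, with 0 shared exonic bases. LINC00525 had 11.01, 6.67 and 4.99 normalised reads in the DMSO libraries and 20.1, 33.7 and 29.8 in the ginkgolic acid libraries (log2 fold change 1.79 ± 0.36 (SE), adjusted p = 0.00054 by limma). AC011498.6 begins 79 bases from a start of UBXN6, a cofactor of the ATPase p97, and shares 83 exonic bases with it. AC011498.6 had 2.002, 7.63 and 2.99 normalised reads in the DMSO libraries and 11.7, 15.2 and 17.6 in the ginkgolic acid libraries (log2 fold change 1.73 ± 0.49 (SE), adjusted p = 0.00382 by limma). AC012073.1 faces 85 coding bases of ADCY3, an adenylate cyclase. AC012073.1 had 2.002, 2.86 and 5.99 normalised reads in the DMSO libraries and 12.7, 8.69 and 18.4 in the ginkgolic acid libraries (log2 fold change 1.66 ± 0.50 (SE), adjusted p = 0.00565 by limma). These 3 averaged under 10 normalised reads in DMSO, as did AC006378.1 (7.19). AC006378.1 lies opposite BET1, a SNARE of transport from the endoplasmic reticulum to the Golgi, and shares no exon with it. AC006378.1 had 5.005, 8.58 and 7.99 normalised reads in the DMSO libraries and 37.1, 18.5 and 18.4 in the ginkgolic acid libraries (log2 fold change 1.60 ± 0.38 (SE), adjusted p = 0.00143 by limma). AC107021.1 lies opposite PLOD2, a lysyl hydroxylase of collagen, likewise without a shared exon. AC107021.1 had 17.02, 20.97 and 5.99 normalised reads in the DMSO libraries and 43.5, 33.7 and 43.004 in the ginkgolic acid libraries (log2 fold change 1.54 ± 0.38 (SE), adjusted p = 0.00185 by limma). LINC00632 spans the CDR1 locus on chromosome X, shares 789 exonic bases with CDR1 and is known as the precursor of a circular RNA, for which no value is given here. LINC00632 had 15.01, 12.4 and 16.97 normalised reads in the DMSO libraries and 46.6, 32.6 and 49.1 in the ginkgolic acid libraries (log2 fold change 1.46 ± 0.27 (SE), adjusted p = 0.000251 by limma). In all 6 the lowest ginkgolic acid library lay above the highest DMSO library, beside 98.3% of all 403 genes whose groups did not overlap.

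RUSC1-AS1 was among the 3 of the 45 with the highest mean counts, not corrected for length, with AL365181.3 and the sense-intronic AC007996.1. RUSC1-AS1 (chr1:155316863-155324176, minus strand) overlaps RUSC1 and FDPS, the farnesyl diphosphate synthase of the mevalonate pathway, and begins 102 bases from a start of RUSC1. It had 143, 132 and 112 normalised reads in the DMSO libraries and 266, 265 and 336 in the ginkgolic acid libraries, from 129 ± 15.9 to 289 ± 40.8 (SD, n = 3), log2 fold change 1.15 ± 0.15 (SE), adjusted p = 1.26e-05 by limma. Its groups were well apart. It shares 1091 exonic bases with these genes, neither of which is among the 403. AL592430.1, opposite the ankyrin gene ANK3 with 830 shared exonic bases, was the 1 transcript of the 45 whose groups overlapped, beside 98.3% of all 403 genes whose groups did not. AL592430.1 had 5.005, 10.5 and 7.99 normalised reads in the DMSO libraries and 9.54, 28.2 and 28.96 in the ginkgolic acid libraries (log2 fold change 1.30 ± 0.45 (SE), adjusted p = 0.0129 by limma). It lost the call without DMSO library 1, without ginkgolic acid library 2 and without ginkgolic acid library 3, where its log2 fold change was 1.05, 1.06 and 1.04.

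Sense-intronic transcripts mostly rose, and all 11 lie in a host gene of their own. Of the hosts, SOS1 alone is among the 403 genes, so for the other 10 the host's change was not analysed here. In all 11, SOS1-IT1 included, a change in precursor RNA of the host cannot be told apart from one in the transcript. AC007996.1, in KCTD1, was the 1 fall and had the highest mean count of the 11, not corrected for length. AC007996.1 had 222, 218 and 242 normalised reads in the DMSO libraries and 148, 85.8 and 101 in the ginkgolic acid libraries (log2 fold change -1.06 ± 0.18 (SE), adjusted p = 0.000177 by limma). Its DMSO libraries all lay above its ginkgolic acid libraries. AP001033.2, in ANKRD12, had the largest counts among the rises. AP001033.2 had 27.03, 36.2 and 32.9 normalised reads in the DMSO libraries and 109, 91.2 and 82.5 in the ginkgolic acid libraries (log2 fold change 1.53 ± 0.20 (SE), adjusted p = 1.71e-05 by limma). AC025857.2 lies in CTSB, the gene of the lysosomal protease cathepsin B. AC025857.2 had 27.03, 29.5 and 25.95 normalised reads in the DMSO libraries and 67.8, 62.99 and 66.7 in the ginkgolic acid libraries (log2 fold change 1.23 ± 0.20 (SE), adjusted p = 9.2e-05 by limma). N4BP2L2-IT2 lies in N4BP2L2. N4BP2L2-IT2 had 23.02, 13.3 and 28.9 normalised reads in the DMSO libraries and 51.9, 51.04 and 58.8 in the ginkgolic acid libraries (log2 fold change 1.33 ± 0.28 (SE), adjusted p = 0.00062 by limma). These 3 rises showed no overlap between the groups, as for 98.3% of the table.

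Further rises were at lower counts, in genes of varied roles. AL133243.2 lies in BIRC6, which encodes an inhibitor of apoptosis protein. AL133243.2 had 6.01, 19.1 and 8.98 normalised reads in the DMSO libraries and 20.1, 46.7 and 34.2 in the ginkgolic acid libraries (log2 fold change 1.55 ± 0.41 (SE), adjusted p = 0.00283 by limma). AC005089.1 lies in MLXIPL, the gene of the glucose-responsive transcription factor ChREBP. AC005089.1 had 12.01, 6.67 and 8.98 normalised reads in the DMSO libraries and 22.3, 31.5 and 29.8 in the ginkgolic acid libraries (log2 fold change 1.52 ± 0.32 (SE), adjusted p = 0.000706 by limma). AL691482.3, in the epithelial transcription factor gene ELF3, is the 1 sense-intronic transcript that overlaps exons, with 664 of its 987 bases. AL691482.3 had 2.002, 4.77 and 7.99 normalised reads in the DMSO libraries and 15.9, 11.9 and 21.1 in the ginkgolic acid libraries (log2 fold change 1.65 ± 0.48 (SE), adjusted p = 0.00448 by limma). All 3 had their lowest ginkgolic acid library above their highest DMSO library, where 98.3% of the table had no overlap of groups. Another 2, AC012181.1 in HERPUD1 and AC068792.1 in DENND5B, averaged under 10 normalised reads. AC068792.1 lost the call without ginkgolic acid library 2 (log2 fold change 1.41, against 1.75 with all libraries).

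Outside the rule that picked 25 transcripts for description there were 20, namely 15 that rose (log2 fold change 0.97 to 1.75) and 5 that fell (-1.02 to -1.28). The falls were TMEM51-AS1, AC027228.2, TBILA, CLDN10-AS1 and EXOC3-AS1. AC027228.2 shares 832 bases with the nicotinic acetylcholine receptor subunit gene CHRNA5, all coding, and CLDN10-AS1 shares 0 exonic bases with CLDN10, a claudin of tight junctions. EXOC3-AS1 begins 2 bases from a start of EXOC3, a subunit of the exocyst. The antisense rises included AL391427.1 opposite the aldo-keto reductase gene AKR1C2 (1.10), AC124319.2 overlapping RNF213 and ENDOV (1.21), AC138028.2 opposite the mechanosensitive channel gene PIEZO1 (1.10), AC084824.5 opposite the mitochondrial fission gene DNM1L (1.34) and UNC5B-AS1 opposite the netrin receptor gene UNC5B (1.07). Also higher were AP000813.1, LINC01589, AC000123.1, AL049869.3, AC004492.1, AC011472.1, RNF157-AS1, CAPN10-DT, AC012181.1 and AC068792.1. None of these 20 overlapped between the groups, as for 98.3% of the table.

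By position, 42 of the 45 overlap an annotated coding gene, 30 of the risers and 12 of the fallers; the other 3, TBILA, CAPN10-DT and LINC01589, do not. Among antisense transcripts, 6 of 12 fallers and 6 of 22 risers begin within 1000 bases of a coding start on the opposite strand. None of the 11 sense-intronic transcripts does. Exons face coding-gene exons in 9 of 12 antisense fallers and 11 of 22 antisense risers, and face coding sequence in 6 of 12 and 9 of 22. These counts are small and were not tested. Single-exon transcripts made up 10 of 34 antisense (29.4%) and 8 of 11 sense-intronic ones (72.7%), beside 12.3% of 5587 annotated antisense and 42.5% of 895 annotated sense-intronic genes in GENCODE 29. The annotated sets take in genes of any expression, whereas the 45 were selected for a change, so these shares are no like comparison. Among the other 358 genes tabulated, 11.2% had a single exon.

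**Figure D5:**
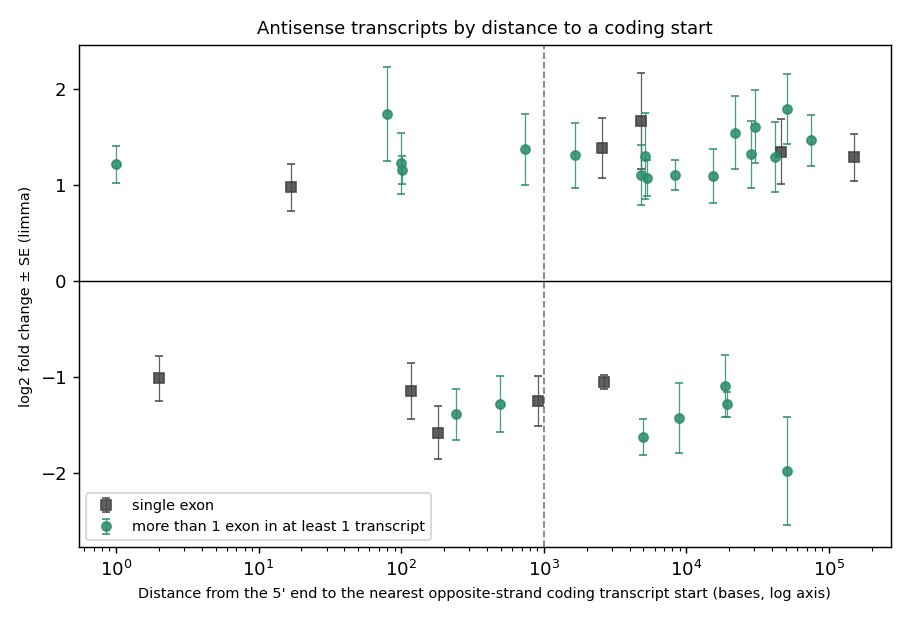
Distance in bases from the 5′ end of each antisense transcript to the nearest coding start on the opposite strand (horizontal log axis), 1 point per transcript. The vertical axis is the limma log2 fold change with standard errors as bars. Symbols separate single-exon transcripts from those with more than 1 exon. Of 12 fallers 6 lie within 1000 bases, and of 22 risers 6 do.

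The transcripts were shorter and had lower counts than the table as a whole, but not fewer reads per length. The median length was 1169 bases beside 3410 over the table, and the median of the mean normalised read count was 24.65 beside 39.49. Per kilobase of exon the median was 25.04 beside 15.82. A mean under 50 was found in 35 of 45 (77.8%) beside 57.1% of all genes. The median coefficient of variation between libraries was 18.1% in DMSO and 25.1% with ginkgolic acid, beside 17.0% and 17.6% over all genes. Ginkgolic acid library 3, which held the most reads over the table on the same assumption, was the highest of the 6 libraries in 18 of the 32 risers (56.2%), beside 114 of 253 rising genes (45.1%). Leaving it out kept 31 of the 32 rises past the threshold.

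Genes that handle such RNAs were looked up in the table. Of 22 genes of nuclear RNA decay (the exosome and its adaptors), 21 of termination and 3′ processing and 16 of double-stranded RNA handling, 0 were in the table, so 0 rose and 0 fell past the authors' thresholds. Genes outside the table were not analysed here, and their absence does not show that they were unchanged.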

How the data were processed

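Total RNA of 6 libraries was sequenced. The tools named in the submitters' processing notes are DESeq2 1.20.0, featureCounts 1.5.0-p3, HISAT2 2.0.5, CASAVA 1.8 and fastp, on build hg38, without settings. The deposited table holds, per the file headers, a signal per library, a log2 fold change and p-values with their adjustment. Every signal value was a whole multiple of 1 step per library (tolerance 1e-06), hence the name normalised read counts; a second deposited table, headed FPKM, held the same values within 4.6e-08 and was not used as FPKM.

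Here log2(value + 1) was fitted over all 403 genes and 6 libraries with limma 3.58.1 (R 4.3.3; variance trend; mean of at least 1, which removed 0 genes; Benjamini-Hochberg; threshold 0.05). Ratios of overlapping pairs were compared by an exact two-sided permutation test. The fit was tested on simulated data that included unchanged genes, whereas this table was selected for change. That test therefore does not gauge the error of the calls here. Positions equalled GENCODE 29 (GRCh38) for all 403 genes, and overlaps needed 1 base. Library pairs within a group differed beyond sampling noise by chi-square if 1 step is taken as 1 read. Python 3.11.15 with matplotlib 3.10.9, pandas 2.3.3 and numpy 2.4.6 did the rest.

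The transcripts and lists were chosen with earlier results of these data known. Values for each library are given for transcripts that overlap a coding gene of the table, the 6 largest antisense rises and falls, sense-intronic transcripts with a mean of at least 10, the 3 highest means, and transcripts whose groups overlap: 25 in all, of which 1 is not reported here. Of the 45, 13 matched a RefSeq promoter, and no promoter is printed. Alternatives changed pseudocount, filter, scaling, variance trend, replicate block, threshold, overlap rule and library set.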

Additional observations from a re-analysis of the deposited data

How the results depend on the processing

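Under the median-of-ratios rescaling over the table, 2 transcripts, 1 antisense and 1 sense-intronic, were called higher in place of 32, 22 and 10, and the calls of lower transcripts stayed at 13. Such a rescaling sets the median gene of a selected table near the middle by construction. Under the other alternatives run (pseudocounts 0.5 and 5, no filter, a mean of at least 10, which tests 40 transcripts, no variance trend, a threshold of 0.01, the authors' own adjusted p and leaving out each library), every count of calls lay within 1.5 times the reported one. Across transcripts and alternatives, 546 values kept direction and call, 34 kept direction without the call, 30 of them under the rescaling, and 0 reversed. The 54 alternative values of pair ratios moved by less than the spread between libraries. With the replicate number as a block, 32 transcripts were called higher and 13 lower. The labels do not say that equal replicate numbers share a culture or day, so the numbers were not taken as pairs. Deviations of same-numbered libraries correlated at -0.0338, 0.00467 and -0.0654. With so few libraries these values do not settle whether libraries were paired. The planned edgeR quasi-likelihood test on whole reads was not run, since the deposited columns were kept as a signal, and read numbers are back-calculated from the step of each library. Genes outside the selected table were not analysed here and give no background.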

Other observations

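Within 100000 bases of the 45 transcripts the table holds 3 coding genes that none of them overlaps, HAPLN2 at the BCAN locus and 2 genes of lipid droplets. CIDEC, whose protein promotes the fusion and growth of lipid droplets, lies 67150 bases from PRRT3-AS1. It had 524, 441 and 523 normalised reads in the DMSO libraries and 1136, 1005 and 956 in the ginkgolic acid libraries, from 496 ± 47.6 to 1032 ± 93.3 (SD, n = 3), log2 fold change 1.06 ± 0.10 (SE), adjusted p = 1.18e-06 by limma, and so rose where PRRT3-AS1 fell. PLIN5, a perilipin that coats lipid droplets, lies 67245 bases from AC011498.6. It had 30.03, 21.9 and 23.96 normalised reads in the DMSO libraries and 58.3, 66.2 and 80.7 in the ginkgolic acid libraries, from 25.3 ± 4.22 to 68.4 ± 11.4 (SD, n = 3), log2 fold change 1.40 ± 0.22 (SE), adjusted p = 8.78e-05 by limma, and rose like AC011498.6. In neither gene did the groups overlap. These pairs share no annotated base, and whether the changes are related was not tested.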
